A study of Ovis aries with 5 samples.

Results

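Solitary distal H3K27ac regions are stretches of acetylated chromatin that stand alone among the regions found in both libraries, away from other H3K27ac and from H3K4me3. There were 2116 of them among the 35266 H3K27ac regions of the joint list, which holds the regions where peaks of both libraries overlapped. They were selected on their measured peaks by 4 limits. A region had to lie on chromosomes 1 to 26, be under 12 kb long, have no other joint H3K27ac region within 50 kb on either side, and have no joint H3K4me3 region overlapping it or within 5 kb. The members made up 9.19% of the 23023 autosomal regions that were under 12 kb and more than 5 kb from H3K4me3, called distal regions from here on. Together they covered 8.85 Mb, or 4.84% of the autosomal H3K27ac length.

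The study mapped histone marks by ChIP-Seq in perirenal adipose tissue of wild type, pure bred merino fetuses (Ovis aries) at 132 days, to which no treatment was applied. Libraries of H3K27ac and of H3K4me3 were made from each of 2 fetuses, named replicate 1 and replicate 2, and the same number marks the same animal for both marks. Input DNA pooled from the fetuses was the control for both marks. The tissue is a mixture of cells and there was no second group, so fewer cells that carry a mark and less of the mark per cell cannot be told apart. With 2 animals, and members selected on the same peaks, the values below are descriptions with no test, and the intervals are 95% Wilson intervals that cover counting error only.

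Acetylation of histone H3 at lysine 27 (H3K27ac) is found on active enhancers and active promoters. Trimethylation at lysine 4 (H3K4me3) is concentrated at promoters, and trimethylation at lysine 27 (H3K27me3) is laid down by the Polycomb complex over silent developmental genes. Active enhancers often occur in clusters around the genes that define a tissue, and a lone acetylated region is the opposite arrangement. Perirenal fat of the late fetal lamb is brown fat, the tissue that makes heat after birth. Enhancer activity itself was not measured here, and neither the tissue's marker genes nor the genes near the members were analysed here.

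The H3K27ac libraries of replicates 1 and 2 held 144038222 and 145716523 tags (reads after removal of duplicates), and the H3K4me3 libraries 92882463 and 109652707. The input held 26651829. Below, scaled tags are the tags in a region's peaks per 100000000 tags of the library, so that the libraries share a scale.

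Of the 34899 autosomal H3K27ac regions, 3192 had no other joint region within 50 kb. The H3K4me3 limit removed 1059 of these and the length limit 17 more. The regions on both sides of each limit are described here, with their scaled tags in replicates 1 and 2. The members nearest to the 50 kb limit had their closest neighbour at 50077 bp (chromosome 25 from 15675746 to 15679073, 258 and 285 scaled tags) and at 50097 bp (chromosome 18 from 7045362 to 7051885, 685 and 590 tags). Just outside it were regions with a neighbour at 49908 bp (chromosome 1 from 236036390, 338 and 275 tags) and at 49904 bp (chromosome 26 from 43492677, 269 and 200 tags). At the H3K4me3 limit, the closest members had such a region at 5043 bp (chromosome 2 from 244383736, 382 and 770 tags) and 5069 bp (chromosome 1 from 240208354, 833 and 921 tags). The regions just outside had one at 4878 bp (chromosome 4 from 91877124, 269 and 407 tags) and 4839 bp (chromosome 12 from 30486276, 183 and 161 tags). The longest members measured 11943 bp (chromosome 11 from 54898439, 1482 and 1044 tags) and 11896 bp (chromosome 2 from 118908506, 1351 and 1611 tags). Regions of 12042 bp (chromosome 17 from 3459044, 1453 and 767 tags) and 12094 bp (chromosome 1 from 246755864, 1204 and 1412 tags) fell just outside the length limit.

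The members ranged from barely solitary to far from any other region of the joint list. The nearest other joint H3K27ac region lay at a median of 89346 bp, with quartiles at 63920 and 152443 bp. In 827 members (39.1%) it was at 50 to 75 kb, in 350 (16.5%) at 75 to 100 kb, in 584 (27.6%) at 100 to 200 kb, in 268 (12.7%) at 200 to 500 kb, and in 87 (4.11%) farther than 500 kb. Only 23 members were more than 1 Mb from the next one.

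**Figure D1:**
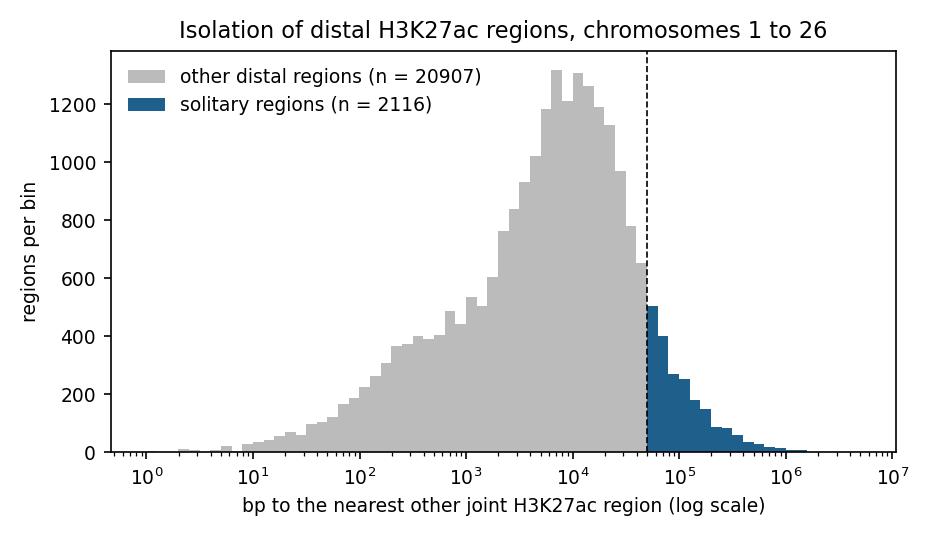
Number of distal H3K27ac regions (vertical axis) by the distance in bp to the nearest other joint H3K27ac region (horizontal axis, log scale), with 20907 other distal regions in grey, the 2116 solitary regions in blue and the 50 kb limit as a dashed line. The solitary regions are the right tail of a single broad hump, with no dip at the limit.

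The most isolated member (chromosome 9 from 10000487 to 10003629) was 2.89 Mb from the nearest other joint H3K27ac region. Its peak held 437 tags in replicate 1 and 371 in replicate 2, or 303 and 255 scaled tags, and no further H3K27ac peak of either library at any FDR lay within 50 kb. It was a region of middling signal found in both animals. The next (chromosome 10 from 43275899 to 43278505) stood 2.31 Mb from the nearest joint H3K27ac region, with 425 and 578 tags. A further H3K27ac peak of replicate 2 alone lay within 50 kb of it. At 35-fold and 50.5-fold over input, its fold enrichment was above the upper quartile of the members in both libraries (27.1 and 28.2). A weaker region (chromosome 6 from 53199990 to 53202373) lay 2.17 Mb away from its neighbour and held 232 and 263 tags, without an H3K4me3 peak in either library. Levels at such distances therefore spanned a wide range.

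The other named members of this kind were stronger. One on the same chromosome (chromosome 6 from 80399217 to 80406203) was 2.03 Mb from the next joint H3K27ac region and held 992 and 1209 tags over 6986 bp. It too had a further H3K27ac peak of replicate 2 alone within 50 kb. The last (chromosome 2 from 98572349 to 98578128) stood 1.76 Mb away and held 543 and 873 tags. Of these 5 members, only the one on chromosome 6 from 53199990 lacked an H3K4me3 peak in replicate 2, and none had one in replicate 1.

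Being solitary in the joint list did not always mean that no other peak was near. At any FDR, 1149 members (54.3%) had a further H3K27ac peak of at least 1 library within 50 kb. For 449 of them it was seen in replicate 1 only, for 438 in replicate 2 only, and for 262 in both libraries, at places that did not enter the joint list. The remaining 967 members (45.7%) stood alone in both libraries. Most of the further peaks were somewhat smaller than those of the members: the 1158 of replicate 1 that passed the FDR limit of 10% had a median of 389 tags, against 447 at members, and the 965 of replicate 2 a median of 356, against 472.

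A small set of neighbours was left out of the joint list by its FDR limit although the peaks were large. At 119 members (5.62%) a peak with an FDR over 10% lay within 50 kb, and at 44 of them in both libraries. These 74 peaks of replicate 1 and 94 of replicate 2 had medians of 1649 and 1548 tags and lengths of 8276 and 8046 bp. Of them, 42 (56.8%) and 31 (33.0%) overlapped a joint H3K4me3 region, against 147 (12.7%) and 41 (4.25%) of the further peaks within the limit. For these members the word solitary holds for the joint list and not for all peaks.

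Successive members were often each other's neighbours. Read along the chromosomes, 1149 members (54.3%, by coincidence the same number as above) had another member as the next or previous joint H3K27ac region, and 967 did not. The rule favours such pairs, because the region next to a member already has more than 50 kb free on that side. No background share was taken, so these counts do not show that members cluster. There were 315 runs of 2, 98 of 3, 27 of 4, 13 of 5, and 7 longer ones. The longest run held 10 members in a row over 5.42 Mb of chromosome 1, from 148099606 to 153522194. Runs of 8 members spanned 5.69 Mb of chromosome 6 (49917072 to 55607779) and 3.23 Mb of chromosome 2 (95344203 to 98578128), and these runs include the members named above that start at 53199990 on chromosome 6 and at 98572349 on chromosome 2. Along these stretches the regions of the joint list were single and widely spaced, while peaks of single libraries could still lie between them.

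Solitary regions were compact. Their joint length ranged from 1387 to 11943 bp with a median of 3726 bp, against 4013 bp for the 7280 distal regions whose nearest neighbour was at 10 to 50 kb and 4444 bp for the 13627 with a neighbour within 10 kb. Nearly all consisted of 1 peak in each library: 2077 members in replicate 1 and 2065 in replicate 2. Replicate 1 held 178 to 2481 tags per member and replicate 2 held 172 to 2351. The medians were 310 and 324 scaled tags, against 356 and 343 for a neighbour at 10 to 50 kb and 405 and 388 for a neighbour within 10 kb. In both animals the solitary regions thus had the lowest median, and their middle ranges (230 to 444 and 235 to 455) overlapped widely with those of the crowded regions (279 to 608 and 271 to 573).

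The lower tag numbers went with shorter peaks, while tags per kb differed less. Tags were counted inside called peaks, whose tags per kb vary little, so fewer tags largely mean shorter peaks. Per kb of peak, the members held medians of 97.3 and 98.4 scaled tags, against 102 and 101 for distal regions with a neighbour within 10 kb. The fold enrichment over input was 23.5 and 24.2 at members and 24.2 and 24.3 at those crowded regions. Among the members, the 87 that were over 500 kb from the next joint H3K27ac region had medians of 284 and 301 scaled tags. The 827 at 50 to 75 kb had 322 and 327. Per kb, replicate 1 went from 98.1 to 92.6 between these classes, while replicate 2 had 98.4 and 99.0, so a lower density in the most isolated class was seen in replicate 1 and not in replicate 2.

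**Figure D2:**
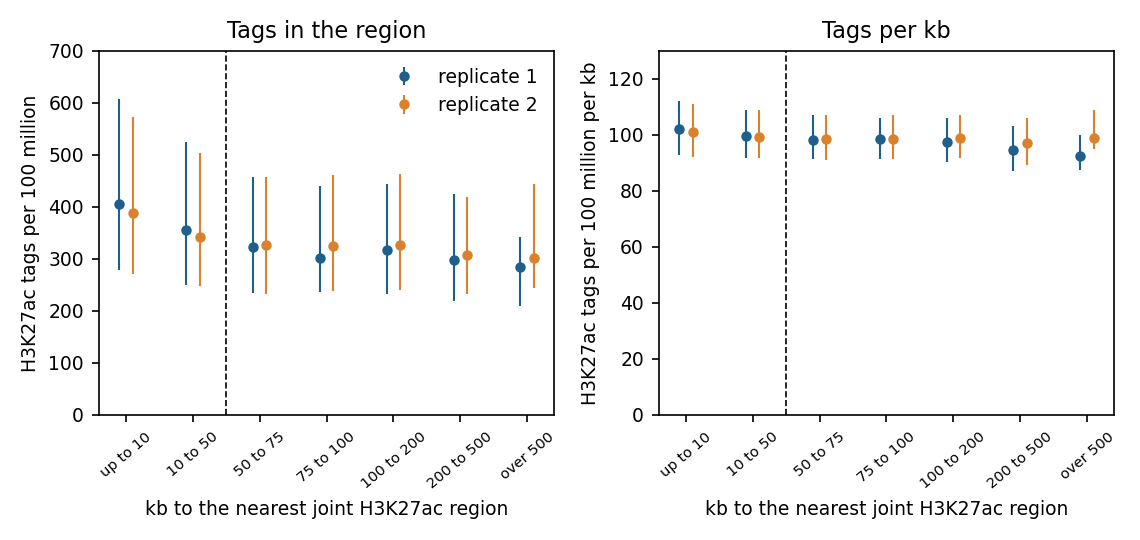
Median scaled H3K27ac tags per region (left) and per kb of peak (right), with bars from the first to the third quartile, by kb to the nearest other joint H3K27ac region, for replicate 1 (blue) and replicate 2 (orange), with the solitary classes right of the dashed line. Tags per region are lower in the solitary classes (284 to 327) than with a neighbour within 10 kb (405 and 388), while tags per kb lie between 92.6 and 102 throughout.

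The strongest solitary region by mean tags (chromosome 4 from 55879367 to 55890706, 11339 bp) held 2481 tags in replicate 1 and 2351 in replicate 2, or 1722 and 1613 scaled tags. It was 26.3 kb from an H3K4me3 region and had 4 and 2 further H3K27ac peaks of single libraries within 50 kb, so it was among the less isolated. A region on chromosome 2 (118908506 to 118920402), also the second longest member, followed with 1351 and 1611 scaled tags. The third (chromosome 2 from 124555023 to 124566364) held 1261 and 1479 and was the most remote of these, with its nearest joint H3K27ac region 319 kb and its nearest H3K4me3 region 668 kb away.

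The fourth (chromosome 1 from 224420950 to 224432262) held 1361 and 1374 scaled tags, the closest pair of values among the strongest members. The last of them (chromosome 4 from 28733973 to 28745113) held 1194 and 1502. All 5 measured over 11 kb, close to the length limit, and all 5 had an H3K4me3 peak in replicate 2. The leading members were therefore long regions that the length limit nearly removed.

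Grouped into 4 quartile groups of mean scaled tags, 529 members each, the median length went from 2361 bp in the lowest group to 3254, 4241 and 6305 bp in the highest. Scaled tags per kb moved little, with 91.8 and 105 in the lowest and highest group of replicate 1 and 93.3 and 106 in those of replicate 2. The median distance to the nearest joint H3K27ac region was 87.5, 95.8, 88.0 and 88.0 kb from the lowest to the highest group. Members with more tags were longer, which the small range of tags per kb largely implies. Their distance from the nearest joint H3K27ac region showed no such order.

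The libraries of both animals gave similar tags at most members. The log2 ratio of replicate 2 to replicate 1 had a median of 0.03 and an SD of 0.52 over the members, against an SD of 0.52 over all autosomal regions. The ratio exceeded 2-fold at 145 members (6.85%, interval 5.85 to 8.01%), and the background over all autosomal regions was 6.81%. It was 2-fold higher in replicate 1 at 79 members (3.73%, background 4.92%) and in replicate 2 at 66 (3.12%, background 1.89%). Peak summits lay a median of 148 bp apart, against 158 bp over all autosomal regions, and within 200 bp at 1175 members (55.5%, background 53.7%). Most of these shares were near the background, and that of shifts toward replicate 2 was the one farthest above it.

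**Figure D3:**
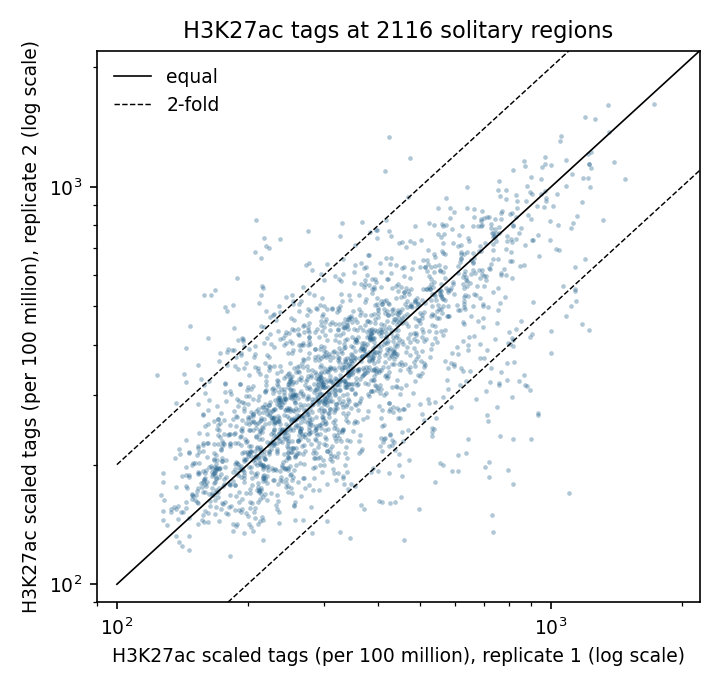
Scaled H3K27ac tags at each of the 2116 solitary regions in replicate 1 (horizontal) and replicate 2 (vertical), both on log scales, with the line of equal values and dashed lines at 2-fold. Most points lie between the dashed lines, and 79 fall below the lower and 66 above the upper one.

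Where the tags differed between the animals, the called peaks differed in length. At the 79 members higher in replicate 1, the peaks had a median length of 6827 bp there and 2523 bp in replicate 2, with 101 and 94.3 scaled tags per kb. At the 66 members higher in replicate 2, the lengths were 2296 and 5111 bp and the densities 90.7 and 101. Scaled tags per kb vary little among all called peaks, so a split on tags also splits on peak length, and tags beyond the end of the shorter peak were not counted. The SD of the log2 ratio was 0.37 in the lowest quartile group of mean tags and 0.62 in the highest. The groups were made on the mean of the same tags, and no member held fewer than 124 and 118 scaled tags. This floor limits the ratio in the lowest group, so the SDs do not compare reproducibility.

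The member with the largest excess in replicate 1 (chromosome 12 from 49688667 to 49699644) held 1580 tags over 10978 bp there and 247 tags over 1786 bp in replicate 2, a log2 ratio of -2.69. The second (chromosome 3 from 212539514 to 212546354) held 1059 and 197 tags, a ratio of -2.44. The third (chromosome 13 from 79073821 to 79080718) held 1051 and 218, a ratio of -2.29. In all 3 a peak over 6.8 kb long in replicate 1 met one under 1.8 kb in replicate 2.

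In the other direction, the region on chromosome 4 from 53201825 to 53209352 held 301 tags in replicate 1 and 1205 in replicate 2, a log2 ratio of 1.98. A region on chromosome 6 (33325795 to 33333032) held 315 and 1083, a ratio of 1.76. One on chromosome 8 (9176740 to 9183052) held 229 and 777, a ratio of 1.75. These 3 had no H3K4me3 peak in replicate 1, and 1 of them had one in replicate 2.

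H3K4me3 was also measured at the members, below the limit of the joint list. The rule barred joint H3K4me3 regions, which need an FDR of at most 1% in both libraries, but not peaks of a single library or of a higher FDR. Such a peak overlapped 385 members (18.2%, interval 16.6 to 19.9%) in replicate 1 and 873 (41.3%, 39.2 to 43.4%) in replicate 2. The background over all autosomal H3K27ac regions, promoters included, was 38.7% and 53.2%. Both libraries had a peak at 315 members, which is 81.8% of those with one in replicate 1 and 36.1% of those with one in replicate 2. Replicate 2 is the deeper of the H3K4me3 libraries, and the part of depth in this difference was not tested.

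These were weak H3K4me3 peaks. Their median was 142 tags in replicate 1 and 183 in replicate 2, or 153 and 167 scaled tags. With a neighbour within 10 kb, distal regions that passed the same limit had 154 and 176. With one at 10 to 50 kb they had 151 and 171, so the level was not particular to the members. H3K27ac regions within 5 kb of a joint H3K4me3 region had 595 and 770, but that class is defined by such a region. Only 55 and 77 members had an H3K4me3 peak with an FDR of at most 1% in that library. The H3K4me3 summits lay close to the H3K27ac summits of the same animal, at medians of 290 bp in replicate 1 and 232 bp in replicate 2.

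Distal regions with neighbours, which had passed the same H3K4me3 limit, overlapped such peaks less often in replicate 2. With a neighbour within 10 kb the shares were 15.3% (14.7 to 16.0%) and 33.4% (32.6 to 34.2%), and with one at 10 to 50 kb they were 16.7% (15.9 to 17.6%) and 36.7% (35.6 to 37.8%). The intervals of the members in replicate 2 did not overlap with either, and in replicate 1 they did not overlap with the first. For the 967 members with no further H3K27ac peak, the share in replicate 1 was 15.7% (13.6 to 18.1%), which overlapped with both, and in replicate 2 it was 42.1% (39.0 to 45.2%). Within the members, the share in replicate 2 was 38.2% (35 to 41.6%) at 50 to 75 kb, 42.6, 43.0 and 42.2% in the classes between, and 50.6% (40.3 to 60.8%) in the 87 members over 500 kb, while in replicate 1 it was 18.6% and 18.4% at the ends. The intervals of the end classes overlapped in both libraries, so no order with isolation was separated within the members. By quartile group of mean H3K27ac tags, the shares from lowest to highest were 17.6, 14.4, 15.9 and 25% in replicate 1 and 36.1, 38.0, 40.1 and 50.9% in replicate 2. The highest group stood above the others in both animals, and its members were also the longest (median 6305 bp against 2361 bp in the lowest), a length whose part in the overlap was not tested.

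H3K4me3 peaks were also set beside the H3K27ac difference between the animals. Of the 79 members over 2-fold higher in replicate 1 for H3K27ac, 34 (43.0%, interval 32.7 to 54.0%) had an H3K4me3 peak in replicate 1, against 344 (17.5%) of the 1971 members within 2-fold. Of the 66 higher in replicate 2, 7 (10.6%, 5.23 to 20.3%) had one. In replicate 2 of H3K4me3 the shares were 43.0%, 41.2% and 40.9% for higher in replicate 1, within 2-fold and higher in replicate 2. In replicate 1, H3K4me3 peaks were thus more common at the members higher there for H3K27ac, while the interval of the 66 others included 17.5%. In replicate 2 the shares were close to each other. The 79 members also had longer H3K27ac peaks in replicate 1 than those within 2-fold (medians 6827 and 3188 bp), and the part of length was not tested.

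**Figure D4:**
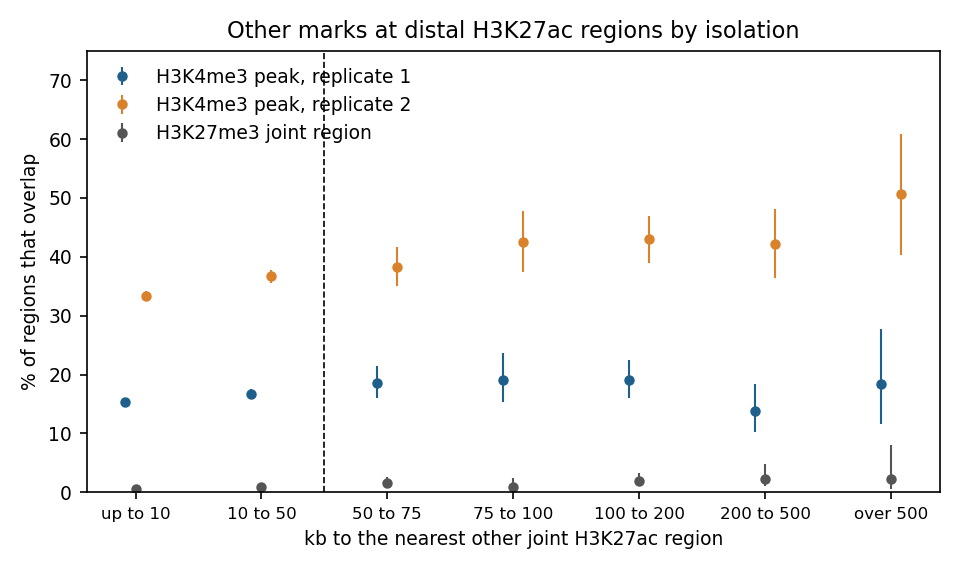
Share of distal H3K27ac regions that overlap an H3K4me3 peak of replicate 1 (blue), of replicate 2 (orange) or a joint H3K27me3 region (grey), with 95% Wilson intervals, by kb to the nearest other joint H3K27ac region, with the solitary classes right of the dashed line. Replicate 2 goes from 33.4% with a neighbour within 10 kb to 50.6% over 500 kb, replicate 1 stays between 13.8 and 19.1%, and H3K27me3 stays under 2.5%.

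H3K27me3, the Polycomb mark, was not used in choosing the members. A joint H3K27me3 region overlapped 35 members (1.65%, interval 1.19 to 2.29%), against a background of 1.78% over all autosomal H3K27ac regions, which include promoters. Among distal regions the share was 0.893% (0.701 to 1.14%) with a neighbour at 10 to 50 kb and 0.543% (0.433 to 0.681%) with one within 10 kb. The solitary regions thus had the highest share of the distal classes, though it was still small. An H3K27me3 region was within 50 kb of 462 members (21.8%, background 20.6%), against 17.4% and 13.1% of the other distal classes. The nearest one lay at a median of 165004 bp.

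The 35 members that overlapped an H3K27me3 region were spread over 20 chromosomes, with at most 4 on one. The overlap ranged from 68 to 4461 bp, and it covered at least 50% of 15 members. At these sites H3K4me3 was more common than at members as a whole, from which the rule had removed joint H3K4me3 regions. A peak was found at 18 (51.4%, interval 35.6 to 67.0%) in replicate 1 and 21 (60.0%, 43.6 to 74.4%) in replicate 2. The background over all autosomal H3K27ac regions, promoters included, was 38.7% and 53.2%, inside these intervals. H3K27ac was higher in replicate 1 at 25 of the 35 (71.4%), against 951 (45.7%) of the other 2081 members. This share was not taken over all autosomal H3K27ac regions. Their median log2 ratio of replicate 2 to replicate 1 was -0.07, against -0.26 at the 35 and 0.04 at the other members. All regions thus also leaned toward replicate 1, unlike the other members.

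The longest overlap was at a region on chromosome 26 (31241542 to 31249094), of which 4461 bp carried H3K27me3. It held 1148 H3K27ac tags in replicate 1 and 590 in replicate 2, and its H3K4me3 peaks held 698 and 602 tags. A region on chromosome 12 (70333719 to 70339023) shared 4163 bp with H3K27me3 and held 892 and 1043 H3K27ac tags. On chromosome 16, a region from 6714281 to 6718316 shared 3981 of its 4035 bp and held 545 and 668 tags. All 3 carried the activating mark H3K27ac and H3K4me3 in both animals at a place listed for the repressive mark, and whether the same cells carried them was not measured.

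Joint H3K4me3 regions lay farther from solitary regions than from other distal ones, and the rule itself favours this. Of the 15350 autosomal H3K4me3 regions, 8703 (56.7%) lay in a joint H3K27ac region, and such regions could hardly lie within 50 kb of a member. The nearest joint H3K4me3 region lay at a median of 129524 bp, against 56946 bp for distal regions with a neighbour at 10 to 50 kb and 47121 bp for those with one within 10 kb. The 2116 members had 1613 H3K4me3 regions as their nearest, and 421 of these (26.1%, interval 24.0 to 28.3%) overlapped H3K27me3, the combination called bivalent. The background over all 15350 autosomal H3K4me3 regions was 12.9%, and the shares were 12.7% and 9.43% for the nearest H3K4me3 regions of the other distal classes.

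The same shares were taken by distance. The rule bars other joint acetylation within 50 kb, so an H3K4me3 region that close could hardly carry it. The farther ones are free of this bar, but not of the choice of sparsely acetylated stretches that the rule makes. At 50 to 200 kb, 235 of 945 (24.9%, 22.2 to 27.7%) overlapped H3K27me3, against 14.7% (13.1 to 16.4%) for the distal class with a neighbour at 10 to 50 kb and 12.7% (11.2 to 14.4%) for the crowded one. Beyond 200 kb the shares were 28.9% (25.2 to 32.7%), 25.3% (21.7 to 29.2%) and 22.9% (19.3 to 27%), with overlapping intervals. The nearest H3K4me3 regions of solitary regions thus carried the Polycomb mark more often at middle distances, while at far distances the intervals did not separate the classes.

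All chromosomes carried solitary regions, from 27 on chromosome 24 to 240 on chromosome 1. Their density was 0.863 per Mb over the autosomes, with the end of a chromosome taken as the last position in any list. It was highest on chromosome 25 (1.10 per Mb) and lowest on chromosome 22 (0.590 per Mb). As a share of a chromosome's H3K27ac regions, members ranged from 3.78% on chromosome 11 (interval 2.83 to 5.04%) to 9.41% on chromosome 6 (7.87 to 11.2%), and the intervals of these chromosomes did not overlap. Chromosome 11 had the most H3K27ac regions per Mb (18.7) and chromosome 6 the fewest (9.99), while their densities of members were 0.707 and 0.940 per Mb. The rule itself favours a higher share where H3K27ac regions are sparse. The density of members did not follow this order on every chromosome: chromosome 14 had 12.4 H3K27ac regions and 0.654 members per Mb, and chromosome 7 had 18.1 and 0.860.

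**Figure D5:**
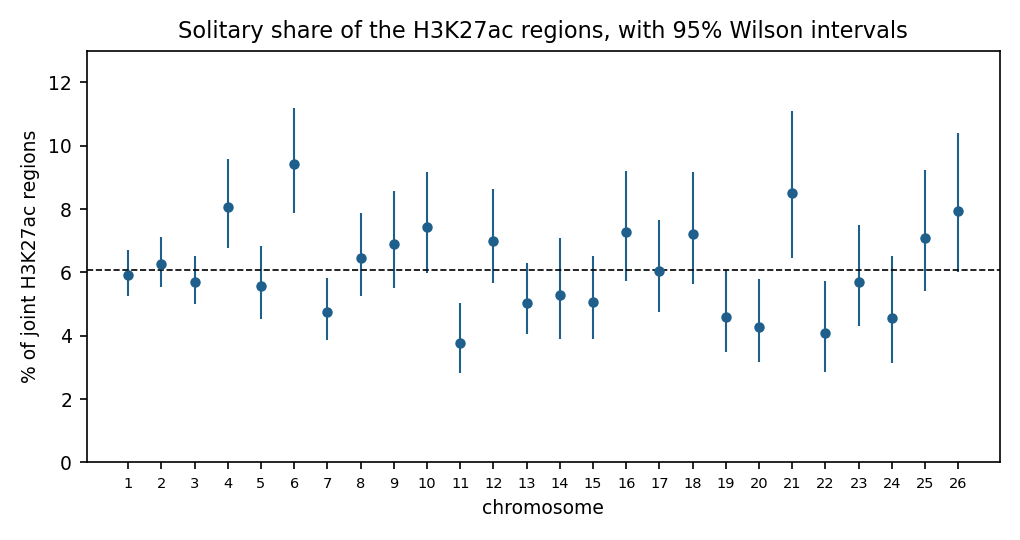
Share of the joint H3K27ac regions of each chromosome that are solitary (vertical axis, %), with 95% Wilson intervals, for chromosomes 1 to 26, with the autosomal share of 6.06% as a dashed line. Chromosomes 6, 21, 4 and 26 are highest (9.41, 8.50, 8.06 and 7.93%) and chromosomes 11, 22 and 20 lowest (3.78, 4.07 and 4.29%).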

How the data were processed

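ChIP-Seq peaks of H3K27ac and H3K4me3 from 2 fetuses and pooled input were used, on Oar_v3.1 coordinates as deposited. The authors used MACS 1.4.2 on each library separately. Each deposited peak has a count of tags, a score based on log10 of the p-value (not used here), a fold enrichment, which is the ratio to the input, and an FDR given in percent. The authors' joint lists hold positions of overlapping peaks of both libraries, at an FDR of at most 10% for H3K27ac and 1% for H3K4me3. Rebuilding the H3K27ac list gave the same start and end for all 2116 members. The joint H3K27me3 list was used for positions only, and its 2 per-library tables were not used because no label stands for them.

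Members were selected with the rule given above. Tags and lengths were summed over the H3K27ac peaks (FDR at most 10%) that overlapped a member by at least 1 bp, fold enrichment was the highest among them, and tags were divided by the library's tags after duplicate removal, as the MACS headers give them. Regions named in the text were the 5 of highest mean tags, the 5 most isolated, the 3 of largest library difference in each direction, the 3 with the longest H3K27me3 overlap, and 2 on each side of each limit. The members and lists were chosen with earlier results of these data known. The overlap code was tested on simulated data. Intervals are Wilson intervals (statsmodels 0.14.6), and tables were handled in Python 3.11.15 with pandas 2.3.3.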

Additional observations from a re-analysis of the deposited data

How the results depend on the processing

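The number of solitary regions depended most on the distance: it was 4529 with 25 kb and 939 with 100 kb in place of 50 kb. It was 967 with no further peak of either library at any FDR within 50 kb, and 1034 with no H3K4me3 peak of either library at any FDR within 5 kb. With 1 library alone it ranged from 1978 to 2254, and with the list rebuilt at any FDR, chosen after seeing the data, it was 2022. An FDR of at most 5% gave 2588. That limit is close to the median FDR of the members' peaks in replicate 2 (4.95%), so it drops members as well as neighbours. How many of the 2588 are among the 2116 was not counted, so the similar number does not mean the same regions. Without further peaks, the mean of the library medians was 304 scaled tags (317 for all members), 3166 bp (3254) and 23.3-fold (23.9). Leaving out a library gave 310 to 324 scaled tags, 3210 to 3299 bp, 23.5-fold to 24.2-fold, and 18.2 to 41.3% of members with an H3K4me3 peak. The H3K27me3 share was 0.709% with 50% of the member covered and 3.69% with overlap or a distance within 5 kb. With only the peak of highest tags, the SD of the log2 ratio was 0.55 in place of 0.52. At 100 kb the solitary share was 5.22% on chromosome 6 and 1.29% on chromosome 11, and chromosome 21 was then highest (5.24%). In all, 28 of 40 alternatives moved their value by less than the margin, which was 1.5 times for counts of regions, 1 SD of the library values for means over the libraries, and the 95% interval for other shares and for the SD of the log2 ratio. For means over the libraries, leaving out a library always moves the value by less than this SD, so those alternatives could not leave the margin. Another alternative, centring the log2 ratio on all autosomal regions, cannot change its SD. Alternatives of these kinds therefore say nothing on stability. The SD margin was wide for the H3K4me3 share, which went from 29.7 to 18.2% without replicate 2, a move of over 1.5 times.

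No paired analysis was possible because no result comes from a test between groups. Alternatives on sequence, motifs and genes were not run, since no genome of this build was used here. The input's 26651829 tags limit the fold enrichment and FDR, and 2 animals limit every statement on spread.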

Other observations

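The X chromosome was outside the rule. Of its 367 joint H3K27ac regions, 61 (16.6%) met the same limits on distance, length and H3K4me3, with medians of 278 and 270 scaled tags in replicates 1 and 2. Of these 61, 49 (80.3%) overlapped a joint H3K27me3 region, as did 302 (82.3%) of all H3K27ac regions on X, against 1.65% of the autosomal solitary regions. An H3K4me3 peak overlapped 24 (39.3%) of the 61 in replicate 1 and 51 (83.6%) in replicate 2. The share over all H3K27ac regions on X was not taken, so these counts do not set the 61 apart from the rest of X.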
